A study of Mus musculus with 6 samples.

Results

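The cells described here are brain myeloid cells with high expression of major histocompatibility complex (MHC) class II genes and almost no microglial transcripts, provisionally monocytes and dendritic cells. They were selected on measured values. A cell barcode was a member if it had at least 400 detected genes and under 10% mitochondrial transcripts, if H2-Aa, H2-Ab1, H2-Eb1 and Cd74 together made up at least 1% of its transcripts, and if P2ry12, Tmem119, Siglech, Sall1 and Gpr34 together gave at most 1 and Cd79a gave 0. Transcripts were counted as unique molecular identifiers (UMIs), each marking 1 captured RNA molecule. Of 6000 deposited barcodes, 2083 passed the limits on genes and mitochondrial transcripts (kept barcodes below), and 76 of these, or 3.65%, were members. A further 83 kept barcodes reached the MHC class II level but held more than 1 microglial UMI, and 0 were left out for Cd79a.

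The brains came from female C57BL/6 mice aged 2 to 3 months. The naive group comprised wild-type mice without metastases, with 2 libraries from 1 brain each. The metastasis group comprised unmodified C57BL/6 mice that had received E0771 cells, from a mammary carcinoma of the mouse, into the heart 2 to 3 weeks before, also with 2 libraries from 1 brain each. Cx3cr1+/- and Cx3cr1-/- C57BL/6 mice with metastases, at the same age and interval, gave 1 library each from 2 pooled brains. They are called heterozygous and null below, after the fractalkine receptor gene Cx3cr1. All suspensions were enriched for Cd11b and run on Drop-seq, which captures single cells in droplets and reads the 3′ ends of their transcripts. Type 1 dendritic cells carry little Cd11b, so the enrichment can set which members could be seen and in what shares.

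MHC class II molecules present peptides taken up from outside the cell to CD4 T cells. H2-Aa and H2-Ab1 encode the chains of I-A, H2-Eb1 the beta chain of I-E, and Cd74 the invariant chain that guards the peptide groove until H2-DM loads a peptide. Dendritic cells carry MHC class II molecules at rest, whereas monocytes, macrophages and microglia raise them on activation. In the healthy brain, cells that carry them sit mainly in the meninges, the choroid plexus and along vessels. Only transcripts were counted here, so which of these chains reached the cell surface was not measured.

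The label was checked against its markers. Each of the 76 members carried UMIs of H2-Aa, H2-Ab1, H2-Eb1 and Cd74, which the selection required in sum. Ly6c2 or Ms4a4c, genes of Ly6C-high monocytes, put 32 members on a monocyte side. Cd209a, a C-type lectin of monocyte-derived and type 2 dendritic cells, or Ccr7, the receptor that guides mature dendritic cells to lymph nodes, put 10 on a dendritic side. A further 4 carried genes of both sides and 30 of neither. Cd209a was seen in only 3 of the 76 members, 1 each in naive 1, metastasis 1 and naive 2. The members are therefore called MHC class II high barcodes rather than by a cell type.

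The members were spread very unevenly. Metastasis 1 held 54 of them, or 71.1%, naive 2 held 12, and the other 4 libraries held 10 together. For the 4 libraries of unmodified mice, naive and metastasis are swapped between the table names and the sample labels. The labels were followed, so every direction between naive and metastasis rests on them. Replicate 1 was sequenced on a HiSeq 2500 and all other libraries on a NextSeq 500. Library totals ran from 491621 to 2667099 UMIs, and kept barcodes from 81 in metastasis 2 to 990 in metastasis 1. No member's barcode occurred in another library.

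The promoters of class II chain genes share a set of short elements bound by a common factor complex, and a promoter window is shown for 2 of the 3 chains that every member expressed. The windows run from 250 bases before to 50 bases after the annotated start site (RefSeq, GRCm38.p6). Capitals mark the 7-letter match TGATTGG, which holds the CCAAT core of the Y box read on the other strand, in the orientation of the gene. H2-Aa lies on the minus strand at chr17:34287774-34288073 and H2-Eb1 on the plus strand at chr17:34305617-34305916.
H2-Aa: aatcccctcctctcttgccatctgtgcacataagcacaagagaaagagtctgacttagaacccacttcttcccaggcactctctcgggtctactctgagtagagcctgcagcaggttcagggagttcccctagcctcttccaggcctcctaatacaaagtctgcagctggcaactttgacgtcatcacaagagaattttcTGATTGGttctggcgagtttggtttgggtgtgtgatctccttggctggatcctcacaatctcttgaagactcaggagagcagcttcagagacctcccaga
H2-Eb1: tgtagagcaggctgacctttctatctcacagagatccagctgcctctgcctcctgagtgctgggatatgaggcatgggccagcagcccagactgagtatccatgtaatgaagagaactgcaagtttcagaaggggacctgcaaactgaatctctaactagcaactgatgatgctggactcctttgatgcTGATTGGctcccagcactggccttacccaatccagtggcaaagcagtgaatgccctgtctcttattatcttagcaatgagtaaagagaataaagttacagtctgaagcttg
The match begins 50 bases before the start site in H2-Aa and 61 bases before it in H2-Eb1. It was present on either strand in 2568 of 32851 promoters of the same length, or 7.82%. H2-Ab1 is named only. The annotated H2-Aa, H2-Ab1 and H2-Eb1 genes span chr17:34282744-34287823, chr17:34257689-34269419 and chr17:34305867-34316674 (GENCODE M21, GRCm38, also called mm10). The H2 genes have close relatives, so reads of near-identical copies may have been split or misplaced between them.

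The share of MHC class II high barcodes with and without metastases did not differ beyond the spread between these libraries. They made up 0.714% of kept barcodes in naive 1 (3 of 420; 95% Clopper-Pearson interval 0.148 to 2.07) and 6.63% in naive 2 (12 of 181; 3.47 to 11.3). In the metastasis group they made up 5.45% of metastasis 1 (54 of 990; 4.12 to 7.06) and 3.70% of metastasis 2 (3 of 81; 0.770 to 10.4). Both metastasis libraries lay between the 2 naive libraries, an order that depended on the limits: with up to 25% mitochondrial transcripts, or with 0 microglial UMIs allowed, both metastasis libraries lay above both naive libraries (differences of 3.25 and 1.68 points, exact permutation p = 0.333 each). The group means were 4.58% ± 1.24 (SD, n = 2) with metastases and 3.67% ± 4.18 (SD, n = 2) without. The difference of 0.907 percentage points was smaller than the spread between the naive libraries (exact two-sided permutation test, p = 1; the smallest p this design allows is 0.333). Within replicate 1 the metastasis library was 4.74 points higher, and within replicate 2 it was 2.93 points lower (-2.93). The p-value only ranks this difference among relabelings of these libraries, and with a smallest p of 0.333 the permutation test could not show a difference. Intervals of shares, here and below, cover counting error only.

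**Figure D1:**
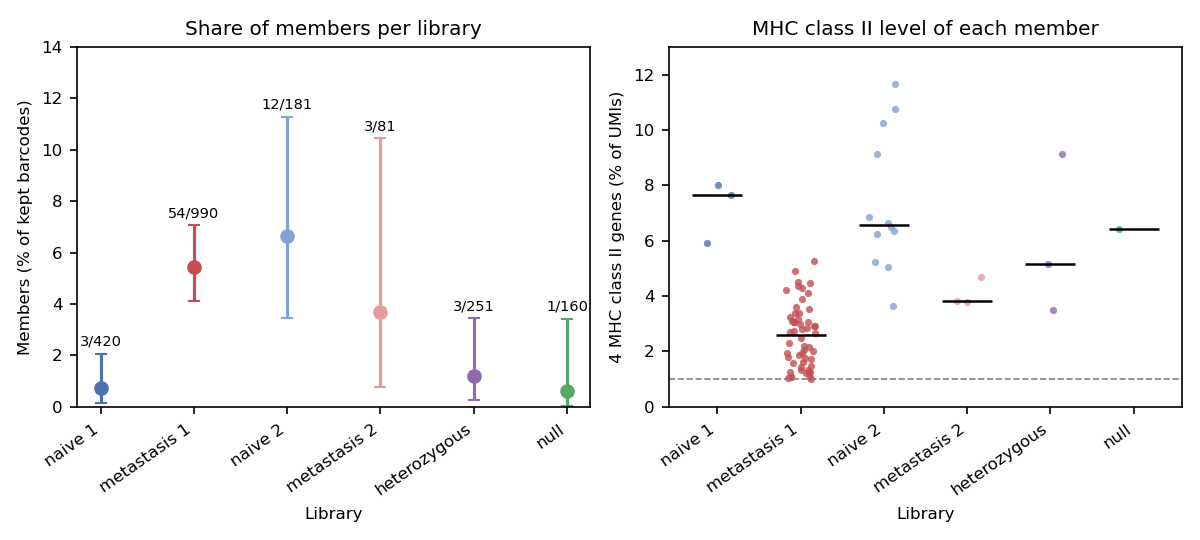
Left, members as a percentage of kept barcodes in each library (points) with 95% Clopper-Pearson intervals (bars) and the counts above them; right, percentage of UMIs from the 4 MHC class II genes in each member (points), the library median (black line) and the 1% threshold (dashed). Naive 2 has the highest share at 6.63%, and the members of metastasis 1 lie lower, at 1.02% to 5.26% of UMIs, than those of naive 2, at 3.64% to 11.7%.

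The denominator differed strongly between libraries. Kept barcodes with at most 1 microglial UMI numbered 654 in metastasis 1, 31 in naive 2, 22 in the heterozygous library, 21 in naive 1, 9 in metastasis 2 and 6 in null. Over these barcodes alone, members made up 8.26% in metastasis 1, 14.3% in naive 1, 33.3% in metastasis 2 and 38.7% in naive 2, and the metastasis minus naive difference reversed to -5.70 points.

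The MHC class II level used for selection was itself lower in members of metastasis 1. There the 4 genes took 1.02% to 5.26% of a member's UMIs, with a median of 2.59%. In naive 2 they took 3.64% to 11.7%, with a median of 6.57%. The 3 members of naive 1 stood at 5.94%, 7.64% and 8.0%, those of metastasis 2 at 3.78%, 3.82% and 4.68%, those of the heterozygous library at 3.49%, 5.18% and 9.15%, and the null member at 6.44%. In metastasis 1 the values ran on across the threshold, from 1.02%, 1.03% and 1.08% just inside to 0.990%, 0.935% and 0.918% just outside. In naive 2 they left a gap, with 3.64% just inside and 0.736% just outside. As these values chose the members, they are given without a test. Median depth was 2243 UMIs per member in metastasis 1 and 4105.5 in naive 2.

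Cd74 made up a different part of the class II transcripts in each library. Among members, Cd74 gave 12.9% of the 4 genes' UMIs in metastasis 1 (exact binomial interval 11.8 to 14.1), 24.1% in naive 1, 32.5% in naive 2 (31.0 to 34.0), 41.3% in metastasis 2 (31.9 to 51.1), 30.2% in heterozygous and 21.7% in null members. H2-Aa moved the other way, with 31.9% in metastasis 1 and 13.8% in metastasis 2. Naive and metastasis libraries had the same order over all deposited barcodes, at 14.8% in metastasis 1, 24.7% in naive 1, 34.6% in naive 2 and 43.8% in metastasis 2. Microglial barcodes, those with 3 or more UMIs of the 5 microglial genes, gave 17.3% in metastasis 1 and 43.2% in metastasis 2. The libraries of replicate 1, read on the HiSeq 2500, had the 2 lowest shares over all barcodes, and the part of the sequencer in this was not tested.

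**Figure D2:**
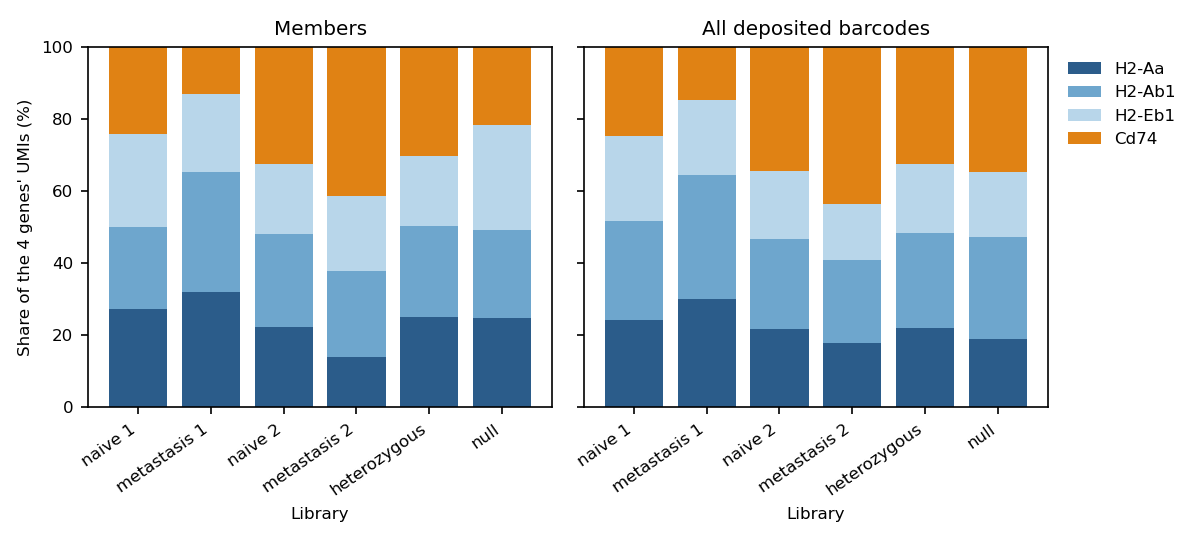
Share of H2-Aa, H2-Ab1, H2-Eb1 and Cd74 in the summed UMIs of the 4 genes (stacked to 100%) in each library, for members (left) and for all deposited barcodes (right). Cd74 is the smallest part in metastasis 1 (12.9% of members' UMIs, 14.8% over all barcodes) and the largest in metastasis 2 (41.3% and 43.8%).

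The genes of peptide loading were also higher in members. Levels are given as CPM, the summed UMIs of a gene scaled to a common total of all UMIs in the barcodes. H2-DMa and H2-DMb1, the chains of the peptide editor H2-DM, stood at 486 and 569 CPM in members of metastasis 1 and at 86.6 and 79.5 CPM in its other kept barcodes. H2-DMb1 had a UMI in 36 of 54 members and H2-DMa in 29. A gene was measured with at least 30 UMIs over both sets together, so a rare gene could pass through its level in members alone. Counts of measured genes that were called, here and below, are partly fixed by this limit. A gene was called higher or lower where its ratio was at least 2-fold and the exact 95% interval of the ratio left out 1. Both loading genes were among the 2 higher of 5 measured genes of the class II pathway outside the selection, at 5.61-fold (interval 4.18 to 7.44) for H2-DMa and 7.16-fold (5.42 to 9.39) for H2-DMb1. Over all 8316 genes measured in this comparison, 2.81% were called higher and 4.3% lower. Those shares carry no inference here, because the selection used the same barcodes. Ctss, the protease that trims the invariant chain, was not called higher. In naive 2, H2-DMa stood at 1360 against 297 CPM, H2-DMb1 at 913 against 153 CPM, Ifi30, a thiol reductase of antigen processing, at 1416 against 491 CPM, and H2-Oa, which tempers H2-DM and is a B cell and dendritic cell gene, at 168 against 35.3 CPM. These were the 4 called higher of 6 measured there, where 6.17% of 4848 genes were called higher and 6.93% lower.

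Ly6C-high monocyte genes were abundant in some members of naive 2, and in metastasis 1 members carried a UMI of them about as often as microglial barcodes did. In naive 2, Ly6c2 counts in the 12 members ran from 0 to 54 UMIs with a median of 1, and Ms4a4c from 0 to 36 with a median of 5. A pair of members carried most of the Ly6c2, with 54 UMIs in 1 and 45 in the other, and the same members held 12 and 14 UMIs of Ms4a4c, 20 and 8 of Plac8 and 33 and 37 of Lyz2. Ly6c2 was seen in 6 of 12 members (50%; interval 21.1 to 78.9) and in 22 of 139 microglial barcodes (15.8%), with median depths of 4105.5 and 3066 UMIs. Ms4a4c was seen in 10 of 12 members and in 24 of those 139. After each barcode was thinned to 800 UMIs, the shares were 41.7% against 6.57% for Ly6c2 and 58.3% against 6.57% for Ms4a4c. Ly6c2 and its neighbour Ly6c1 are near-identical, so 3′ reads may be divided between them.

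In metastasis 1, Ly6c2 ran from 0 to 9 UMIs and Ms4a4c from 0 to 10 in the 54 members, each with a median of 0. Ly6c2 was seen in 18.5% of members (10 of 54; 9.25 to 31.4) and in 13.4% of microglial barcodes (26 of 194; 8.95 to 19.0), with like median depths of 2243 and 2221 UMIs. Ms4a4c was seen in 25.9% of members (14 of 54) and in 28.9% of microglial barcodes (56 of 194). The summed levels were 190 against 85.3 CPM for Ly6c2 and 258 against 174 CPM for Ms4a4c. Thinned to 800 UMIs, the shares were 11.1% against 6.70% for Ly6c2 and 14.8% against 11.9% for Ms4a4c. The intervals of the unthinned shares overlapped, which is not a test. Microglial barcodes held up to 16 UMIs of Ly6c2 and 12 of Ms4a4c, so they are not a clean measure of background. Whether a barcode with 1 UMI of either gene stands above background in this library was not tested. Over the other 936 kept barcodes, members had ratios of 1.83 (1.16 to 2.76) for Ly6c2 and 1.47 (1.00 to 2.08) for Ms4a4c. Set against 337 MHC class II low myeloid barcodes of the same library, which had at most 1 microglial UMI, Lyz2 and at least 3 UMIs of Tyrobp plus Fcer1g, members held 190 against 164 CPM of Ly6c2 and 258 against 251 CPM of Ms4a4c. Ccr2, the receptor that draws monocytes out of marrow, had a UMI in 30 of 54 members (55.6%) and in 66 of 194 microglial barcodes (34.0%).

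The clearest dendritic barcodes were those with several Ccr7 UMIs. In metastasis 1, Ccr7 was seen in 10 of 54 members, with 9, 6, 5 and 3 UMIs in 4 of them and 1 UMI in each of the other 6. It was seen in 16 of 194 microglial barcodes (8.25%), against 18.5% of members. The 4 members with 3 or more Ccr7 UMIs also held Tbc1d4, a Rab GTPase-activating protein, at 10, 3, 9 and 4 UMIs and the adaptor Samsn1 at 9, 2, 6 and 8 UMIs in the same order. Relb, an NF-κB subunit of dendritic cell maturation, was seen in all 4, at 1, 1, 1 and 4 UMIs. The member with 3 Ccr7 UMIs held 13 UMIs of the chemokine Ccl5 and 5 of Il12b, the p40 chain of interleukin 12. Summed over a list of mature dendritic cell genes that leaves out Ccr7, these 4 barcodes reached 10347 CPM (8381 to 12635), and the other 50 members 1690 CPM (1468 to 1937). Macrophage genes, such as Apoe and C1qa, lay the other way, at 7545 CPM and 15578 CPM.

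Naive 2 held the barcode with the most Ccr7 of all members. It carried 32 UMIs of Ccr7, 23 of Ccl22 and 4 of Ccl17, both chemokines of mature dendritic cells, 150 of Ccl5, 30 of Il12b, 53 of Crip1 and 157 of Cst3, the protease inhibitor cystatin C. Its mature dendritic cell genes summed to 50169 CPM, against 960 CPM over the other 11 members of naive 2. It held 0 UMIs of Lyz2 and 5 of Ms4a4c, which placed it on both sides. No member of naive 1, metastasis 2, heterozygous or null held a Ccr7 UMI.

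Type 2 dendritic cell genes marked a few other members. In metastasis 1, Mgl2, a C-type lectin of type 2 dendritic cells and some macrophages, was seen in 5 of 54 members and in 0 of 194 microglial barcodes, a count of 0 that allows a share of up to 1.88% (exact upper limit). The member with 8 Mgl2 UMIs held 17 UMIs of the chemokine Ccl17 and 4 of the cycling gene Mki67. A second held 5 of Mgl2 and 3 of Ccl17. The only member of metastasis 1 with Cd209a had 1 UMI of it, 3 of Mgl2, 2 of Ccl17, 10 of Il1r2 and the highest class II share of the library, 5.26%. In naive 2, the member with 3 Cd209a UMIs also had the highest class II share, 11.7%, and held 12 UMIs of Napsa, 8 of Cd7, 6 of Klrd1, 13 of Plac8 and 2 of Zbtb46, a transcription factor of classical dendritic cells. It had 0 UMIs of Lyz2, Apoe, Mgl2 and Ccl17 and 1 of Clec9a, a type 1 dendritic cell gene. Its 2 UMIs of Ms4a4c placed it on both sides.

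Few members carried Xcr1 or Clec9a, genes of type 1 dendritic cells, which cross-present antigen. Xcr1, the chemokine receptor that defines them, was seen in 2 members of metastasis 1, with 6 UMIs in 1 and 1 UMI in the other. The member with 6 Xcr1 UMIs held 3 UMIs of the transcription factor Irf8, 17 of Plac8 and 49 of Cst3, with 1 UMI of Lyz2. The other held 1 UMI of Clec9a, the receptor for dead cells on this subset. Irf8 also occurred without both genes. A member of metastasis 1 held 7 UMIs of Irf8, 5 of Naaa and 75 of Cst3, with 0 of Lyz2, Xcr1 and Clec9a. It was placed on the monocyte side by 2 UMIs of Ly6c2. Another, on neither side, held 2 of Irf8, 7 of Naaa and 44 of Cst3. The identity of these members was not tested. A member of naive 2 had 2 UMIs of Clec9a, 6 of Irf8, 1 of Wdfy4 and 89 of Cst3, and was placed on the monocyte side by 2 UMIs of Ms4a4c. A further member in each of these libraries held 1 UMI of Clec9a, and in naive 2 it was the member with 3 Cd209a UMIs. Neither Xcr1 nor Clec9a had a UMI in members of naive 1, metastasis 2, heterozygous or null. In metastasis 2, however, 1 member held all 12 UMIs of the type 1 dendritic cell list, at 13086 CPM. It held 4 UMIs of Irf8, 3 of Naaa and 0 of Lyz2. Its depth was 917 UMIs, at which 0 UMIs of a gene says little.

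Another set of members carried macrophage genes. In naive 1, the member with 3 Cd209a UMIs also held 9 UMIs of Mgl2, 151 of Apoe, 90 of Lyz2, 9 of Pf4 and 5 of Mrc1, the mannose receptor of border-associated macrophages. A second member of naive 1 held 6 of Mgl2, 100 of Apoe and 15 of Pf4. Cd209a therefore lay among macrophage genes in naive 1 and among dendritic cell genes in naive 2. Cd209a and Mgl2 were also seen in 11 and 14 of 378 microglial barcodes of naive 1, with up to 22 and 11 UMIs in a barcode. In naive 2, 1 member held 210 UMIs of Spp1 with 229 of Apoe and 113 of Lyz2, and another held 67 of C1qa, 191 of Lyz2, 36 of Ms4a4c and 14 of the interferon-γ-induced chemokine Cxcl9. In metastasis 1, Apoe ran from 0 to 52 UMIs, with a median of 4.

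**Figure D3:**
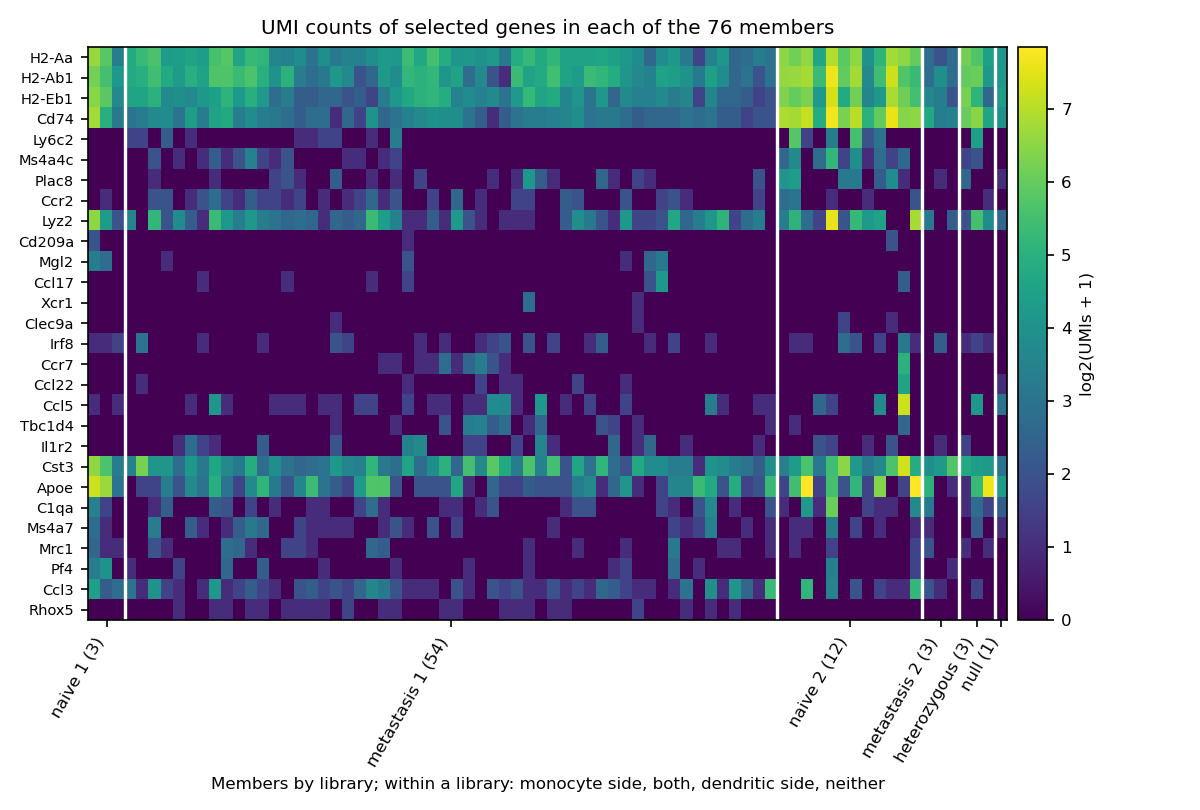
UMI counts of selected genes (rows) in each of the 76 members (columns), coloured as log2(UMIs + 1), with white lines between libraries and members ordered by monocyte side, both, dendritic side and neither within a library. The class II genes are brighter in naive 2 than in metastasis 1, Ccr7, Ccl22, Ccl5, Tbc1d4 and Cst3 are high together in 1 barcode of naive 2, and the monocyte side of metastasis 1 shows 1 to 10 UMIs of its defining genes.

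The sides were set next to each other in metastasis 1, with 21 monocyte-side and 9 dendritic-side members. Of the 9, 4 held 3 or more Ccr7 UMIs and the other 5 rested on 1 UMI of Ccr7 or Cd209a. The dendritic side may therefore hold background calls, as may the monocyte side. With 2 or more UMIs required, 12 and 4 members remained, and 43 of 201 genes were called. Because Ly6c2, Ms4a4c, Cd209a and Ccr7 divided the same barcodes, the comparison of sides is a description without a test. Of 425 genes with at least 30 UMIs, 41 (9.65%) were higher and 18 (4.24%) lower on the monocyte side by the fold and interval rule. Tbc1d4 stood out, with 1 UMI over the monocyte side (16.9 CPM) and 32 over the dendritic side (1483 CPM), in 5 of its 9 members. Samsn1 had 169 against 1344 CPM, Il1r2, the decoy receptor for interleukin 1, 288 against 1205 CPM, and Ccl5 457 against 1436 CPM. The actin regulator Lsp1, Syngr2, Cytip, Gadd45b, Bcl2a1a, Sltm, Acin1 and Eif5b were lower as well. Bcl2a1a has near-identical copies and its count is uncertain.

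Several of the higher genes on the monocyte side had high levels. Lysozyme (Lyz2) stood at 4030 against 1390 CPM, Ctss at 6891 against 2965 CPM, Apoe at 4504 against 1900 CPM and the neutrophil-attracting chemokine Cxcl2 at 4605 against 2131 CPM. The chemokine Ccl6 had 45 UMIs against 1 (ratio 16.4; interval 2.80 to 664). The immediate-early gene Fos, Cd52, Ccl3, Atp6v1a, Gm2a, Ctsc and Psap were also higher. Of 8 measured lysosomal protease and membrane genes, however, only Ctsc was higher and 0 were lower, and the list summed to 13698 against 15754 CPM, a ratio of 0.869 (0.765 to 0.990). Cst3 stood at 5740 against 10101 CPM. The member with 75 Cst3 UMIs, 7 of Irf8 and 5 of Naaa held 22.1% of the monocyte side's Cst3 UMIs. Of 10 macrophage genes measured, 1 was higher and 0 lower, of 5 classical monocyte genes 1 and 0, and of 7 chemokine genes 4 and 0. All 3 measured of 15 mature dendritic cell genes, Ccl5, Marcksl1 and Tbc1d4, were lower, and the whole list summed to 1287 against 6533 CPM. Tbc1d4 passed the limit of 30 UMIs through the dendritic side, which held 32 of its UMIs. Cd74 stood at 3539 and 3753 CPM on the monocyte and dendritic sides. H2-Aa stood at 8212 against 9869 CPM and H2-Eb1 at 4995 against 7970 CPM. H2-Ab1 lay the other way, at 8822 against 7599 CPM. Without the 4 members with 3 or more Ccr7 UMIs, 30 genes were called in place of 59, and after thinning to 800 UMIs 2 of 28 measured genes were called.

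Against the other 936 kept barcodes of metastasis 1, the highest summed ratio of the 24 lists belonged to dendritic cell genes. Type 2 and monocyte-derived dendritic cell genes summed to 1639 against 500 CPM, a ratio of 3.28 (2.82 to 3.79). Of its 12 genes 8 were measured, and of these 7 were higher and 0 lower. Among them were Mgl2 (137 against 4.77 CPM), Ifitm1 (334 against 25.4 CPM), Ccl17 (190 against 16.3 CPM) and Tnip3 (243 against 56.4 CPM). Ifitm1 was seen in 9 of 54 members, and 1 member held 17 of the 25 Ccl17 UMIs and 8 of the 18 of Mgl2. Per member, the list had a median of 952 CPM. Of other dendritic cell genes, Clec10a and Zbtb46 had 0 UMIs in the 54 members, Cd209a 1 and Flt3 4. Mgl2 had 18 UMIs in members and would not have reached the limit of 30 without them. The list's median log2 ratio was 2.39, and that over all genes measured was -0.17. Mature dendritic cell genes were 2.07-fold (1.83 to 2.33), with 5 of 10 higher, and interferon-γ response genes 1.99-fold (1.74 to 2.27), with 6 of 10 higher, led by the immunoproteasome subunit Psmb8 at 675 against 240 CPM. Classical monocyte genes had a ratio of 0.985 (0.937 to 1.03), with Ccr2 the 1 higher and Chil3 the 1 lower of 13. Macrophage genes had a ratio of 1.19 (1.13 to 1.24), with 0 of 16 higher and Spp1 lower, at 129 against 508 CPM.

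Cytokine and chemokine genes were mixed. Il1b, encoding interleukin 1β, stood at 6201 against 2976 CPM with a UMI in 53 of 54 members, and Il6 at 137 against 17.5 CPM in 5 members. Cxcl16, Ccl9, Ccl2, Ccl6 and Cxcl2 were higher, and Ccl12 lower, among 10 chemokine genes. Type I interferon response genes had 3 of 16 higher (Isg15, Ifit1 and Ifit2) and 0 lower. Costimulation and checkpoint genes had 2 of 9 higher, Cd274, which encodes PD-L1, at 137 against 61.6 CPM and Tnfsf9 at 364 against 141 CPM. Of 11 cell cycle genes 0 were higher and Cdk1 was lower. Of 8 myeloid transcription factor genes, Nfil3 and Bhlhe40 were higher and 0 were lower.

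Outside the lists, the leading genes were Clec4b1, a C-type lectin of dendritic cells (91.1 against 7.55 CPM, in 9 members), the lysophospholipid receptor P2ry10 (159 against 18.3 CPM, in 13 members) and Il1r2 (531 against 90.6 CPM, in 18 members). Crip1, a LIM-domain protein, was the most widespread, with 2550 against 706 CPM and a UMI in 45 of 54 members. Mmp12, Grasp, Rnase6, 5430435G22Rik, Lsp1, Traf1, Nr4a3, Dpp4, Was, Klrb1b and Bcl2a1a completed the 15. On the low side, Fosl1 had 0 UMIs in members against 317 elsewhere (126 CPM), Pdgfa 0 against 219, Serpinh1, a collagen chaperone, 1 against 354, and Cald1 26 against 1708.

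Markers of other cell types were counted in the same barcodes. All 4 measured of 6 carcinoma-like genes were lower in members, which summed to 334 CPM against 976 CPM in the other kept barcodes. Rhox5, the most abundant of them, still had a UMI in 23 of 54 members and in 87 of 194 microglial barcodes, with at most 2 UMIs in a member. In microglial barcodes of the other unmodified mice it was seen in 0 of 378 in naive 1, 3 of 139 in naive 2 and 0 of 68 in metastasis 2. The heterozygous library had 10 of 216 and the null library 1 of 148. Whether the labels or the table names are right was not tested. Neutrophil genes summed to 182 against 396 CPM, NK cell and T cell genes to 205 against 234 CPM and brain endothelial genes to 7.59 against 33.0 CPM (1 UMI in members). B cell genes other than Cd79a lay the other way, at 68.3 against 30.6 CPM, a ratio of 2.23 (0.984 to 4.46) from 9 UMIs in members. Microglial genes outside the selection summed to 1708 against 2621 CPM, with 0 of 8 called. The part of these transcripts in the results was not tested.

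Summed dendritic cell genes were also higher than in myeloid barcodes with little class II, a reference that required Lyz2. Members met no such limit, and Lyz2 is in the classical monocyte list. The ratios of the dendritic and monocyte lists were therefore partly set by the choice of reference. Set against the 337 MHC class II low myeloid barcodes of metastasis 1, type 2 dendritic cell genes had a ratio of 2.95 (2.50 to 3.46), with 6 of 7 higher, and mature dendritic cell genes 1.98 (1.73 to 2.25). Fscn1, an actin bundler of mature dendritic cells, went against its list, at 37.9 against 94.8 CPM, and Tbc1d4, Tmem123 and Il12b were higher. Over all genes here 2.62% of 5529 were called higher and 5.52% lower, with a median log2 ratio of -0.15. H2-DMb1 stood at 569 against 75.8 CPM and Il6 at 137 against 14.5 CPM. Of 12 classical monocyte genes 0 were higher and Chil3, Thbs1 and Hp were lower, with a summed ratio of 0.882 (0.837 to 0.928). Macrophage genes had a ratio of 1.02 (0.975 to 1.07).

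**Figure D4:**
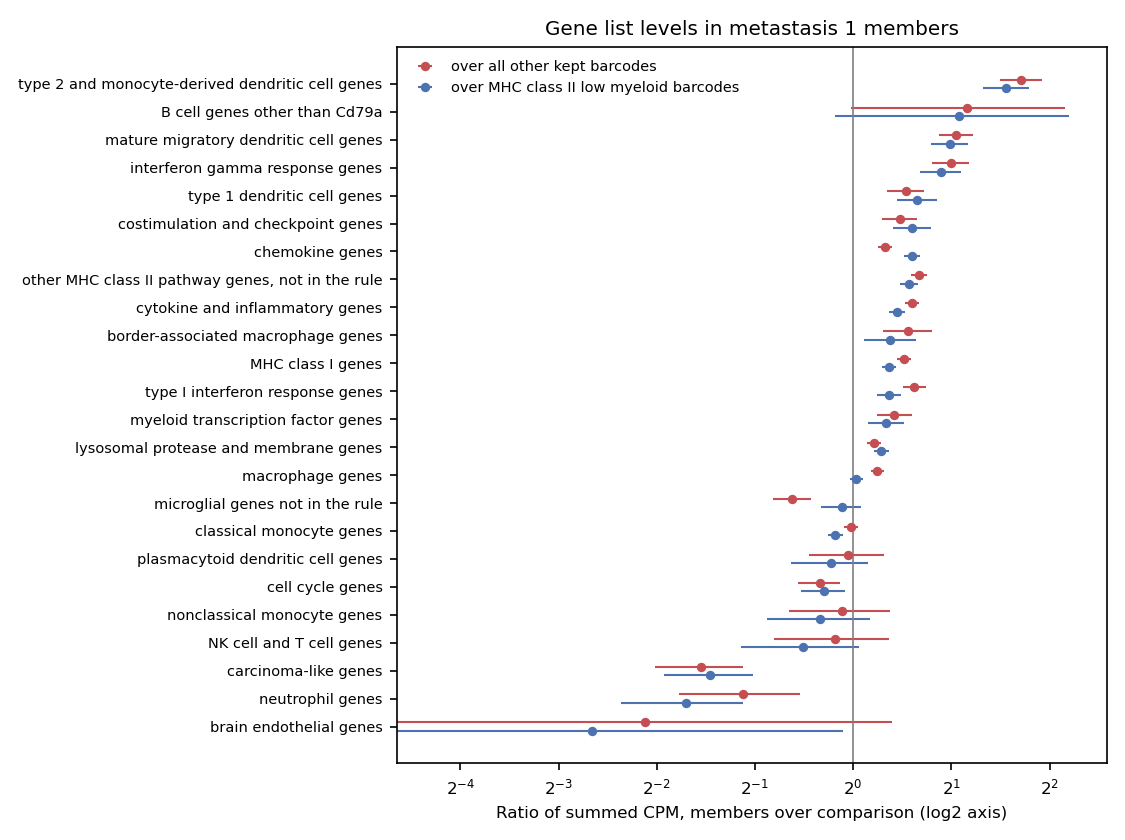
Summed CPM of each gene list in members of metastasis 1 divided by that in all other kept barcodes (red) or in MHC class II low myeloid barcodes (blue), on a log2 axis, with exact 95% intervals that cover counting error only; the endothelial intervals run past the left edge. Type 2 and monocyte-derived dendritic cell genes lie highest, at 3.28 and 2.95, and classical monocyte genes lie at 0.985 and 0.882. The blue reference required Lyz2, a gene of the classical monocyte list, and members did not.

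In naive 2, classical monocyte and type I interferon response genes had high levels when summed over the 12 members. Classical monocyte genes summed to 13506 against 4343 CPM, a ratio of 3.11 (2.86 to 3.37), with 7 of 10 higher, among them Plac8 (1304 against 197 CPM), S100a4 (950 against 146 CPM), Ms4a6c (1285 against 311 CPM) and Lyz2 (8085 against 2947 CPM). Lyz2 gave 434 of the list's 725 UMIs in members and was seen in 10 of 12. The member with 67 C1qa UMIs held 191 of them, and the member with 210 Spp1 UMIs held 113. Fn1 was the 1 lower, with 0 UMIs in members. The median log2 ratio of the list was 1.87, and that over all genes measured -0.20. Type I interferon response genes had 7 of 15 higher and 0 lower, led in level by Ifi27l2a (1677 against 396 CPM) and Irf7 (950 against 216 CPM), a transcription factor of the interferon response. Interferon-γ response genes had 2 of 11 higher and 1 lower, with a median log2 ratio of -0.17. Whether the monocyte list differed between the members of the 2 libraries was not tested, since each comparison has its own reference barcodes.

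Some levels in naive 2 came from 1 barcode. The mature dendritic cell genes summed to 5309 against 1085 CPM over all members, and to 960 CPM without the barcode with 32 Ccr7 UMIs. Il12b, with 30 UMIs, and Spp1, with 210, were each seen in 1 member only. Wfdc17 (1360 against 141 CPM, in 10 members), Cstb (1192 against 231 CPM, in 10 members) and the inhibitory receptor Lilrb4 (1174 against 226 CPM, in 11 members) were more widely spread. Clec4e, Zmynd15, Crip1, Sdc4, Anxa1, Plbd1, 5430435G22Rik, Phf11b, Slfn4, Gp49a, Gm2a and Anxa4 completed the leading genes outside the lists. Of these, 1 barcode held 70% of the Slfn4 UMIs, 62.4% of Crip1, 55% of Clec4e, 54% of Sdc4, 53.3% of Zmynd15, 52.8% of Gp49a and 50% of Anxa4. Lilrb4 and Gp49a are near-identical neighbours, so their counts are uncertain.

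Genes of the brain's own cells were lower in members of naive 2. Of 9 microglial genes outside the selection, 8 were lower, among them Sparc at 168 against 2864 CPM. Of 6 brain endothelial genes 5 were lower. Apod had 1 UMI against 1142 and Igfbp7 2 against 1141. Jun (1229 against 6156 CPM) and Egr1 (447 against 2385 CPM), immediate-early genes, were lower too. Of the other 169 kept barcodes of this library, 139 were microglial barcodes.

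The Cx3cr1 libraries held too few members for a comparison of genes. The heterozygous library had 3 of 251 (1.2%; 0.247 to 3.45) and the null library 1 of 160 (0.625%; 0.0158 to 3.43), a difference of -0.570 points with overlapping intervals and no replicate. Of the heterozygous members, 1 held 21 UMIs of Ly6c2, 17 of Ccl5 and 45 of Lyz2, another 2 of Ms4a4c, 6 of Itgax and 74 of H2-Eb1, and the other 198 of Apoe with 0 of all 4 side genes. The null member held 11 UMIs of Cxcl9, 7 of Ccl5 and 1 of Ccl22, and 0 of Cx3cr1. The 3 members of metastasis 2 likewise held 0 UMIs of Ly6c2, Ms4a4c, Cd209a and Ccr7, at 662 to 1046 UMIs in depth.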

How the data were processed

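Drop-seq UMI counts were analysed from 6 libraries of Cd11b-enriched brain cells, with 1000 deposited barcodes in each. The authors deposited raw UMI counts of genes by barcodes, a unit read from the values. Per the submitters' processing notes, STAR, Seurat and the genome build mm10 were used; for versions, settings, annotation and the choice of 1000 barcodes the entry is: not given in the sources used here. Groups follow the sample labels, and the table names of the 4 libraries of unmodified mice state the reverse.

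Members were found by the stated limits in Python 3.11.15 (pandas 2.3.3, scipy 1.17.1). The selection and the 24 gene lists were chosen with earlier results of these data known. Older symbols in the tables were matched through RefSeq synonyms. Barcodes are not replicates, so shares were compared over libraries with an exact permutation test. The planned fit of summed counts across genes needed 20 members in each of 4 libraries and could not be made. UMIs were otherwise summed per library and described as CPM and ratios with exact 95% intervals, for genes with at least 30 UMIs, with no test, because the selection used the same barcodes. The ratio code was tested on simulated data. Named genes were the selection's genes, list genes, and up to 15 genes for members and 12 per direction for sides, ranked by the interval bound nearest to 1. The further genes given for single members were chosen after their values were seen. Doublets were left in and, as an alternative, the 5% of kept barcodes per library with the highest Scrublet score (scanpy 1.11.5) were removed. Alternatives covered the class II, microglial, gene and mitochondrial limits, the denominator, doublets, left-out libraries and the replicate number. Where 1 UMI decides a call, depth limits it, and share intervals and floors cover counting error only.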

Additional observations from a re-analysis of the deposited data

Results flagged for a closer look

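In replicate 1 the share of MHC class II high barcodes was 4.74 percentage points higher in the metastasis library than in the naive library, and in replicate 2 it was lower by a difference of -2.93 points. The 2 replicates thus differed in direction, and this difference was not tested. Replicate 1 and replicate 2 were read on different sequencers, so replicate and sequencer cannot be told apart.

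Barcodes outside the limits on genes and mitochondrial transcripts were not used in any comparison. In metastasis 2, 45 of 919 such barcodes, or 4.90%, met the rest of the selection, against 8 of 819 (0.977%) in naive 2 and 0 of 580 in naive 1. All 45 had under 400 genes, with a median of 273 UMIs, 194 genes and 3.66% mitochondrial transcripts. The count was 0 of 10 in metastasis 1, 1 of 749 in heterozygous and 0 of 840 in null. At such low depth a few class II UMIs meet the 1% limit, and the limit of 1 microglial UMI excludes little. Whether the 45 barcodes of metastasis 2 are cells was not tested.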

How the results depend on the processing

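The metastasis minus naive share of 0.907 points was 3.25 under 25% mitochondrial transcripts, 2.98 at a class II minimum of 0.5%, 2.1 over all deposited barcodes and 1.68 at 0 microglial UMIs. It reversed to -0.154 at a class II minimum of 2%, to -1.28 at 600 or more genes (where metastasis 2 kept 0 members), to -2.07 under 5% mitochondrial transcripts and to -5.70 over barcodes with at most 1 microglial UMI. Leaving out 1 library gave -2.05 (without naive 1) to 3.86 (without naive 2), with 0.0316 without metastasis 1 and 1.78 without metastasis 2. The replicate block gave 0.907 again (p = 1 by exact permutation, smallest possible 0.5); the labels do not say that a number marks a shared litter or day. The null minus heterozygous difference of -0.570 points became 0.164 with up to 3 microglial UMIs and 3.03 over barcodes with at most 1. The cause of these reversals was not tested. Between the sides, 59 of 425 measured genes were called, against 28 of 264 at the 2% minimum and 2 of 28 after thinning; whether these are shared genes was not counted. Chosen after seeing the data, leaving out members with 3 or more Ccr7 UMIs gave 30, members against MHC class II low myeloid barcodes 450 and members without the 5 deepest 509, against 592. Doublet removal took 107 barcodes, 2 of them members. Settings of the fit across genes (other normalization, no filter, replicate block, left-out libraries) were not run, as that fit could not be made. Members of 4 libraries number 1 to 3, which limits every value there.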
